A study of Homo sapiens with 16 samples.

Results

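RNA levels are described here for 40 genes of glutathione and thioredoxin metabolism, NRF2 signalling and cisplatin transport, in germ cell tumour lines given a MIR9-2-5p mimic. The genes were taken from a list of names, with no cut on their values, but the list was chosen with earlier results of these data known. All 40 matched a gene ID in the count table, out of 58735 IDs in all. The samples were NTERA-2 cells (clone NT2/D1, an embryonal carcinoma (EC) line) transfected with MIR9-2-5p mimic, NT2/D1 cells transfected with scrambled mimic, TCam-2 cells (a seminoma (SEM) line) transfected with MIR9-2-5p mimic and TCam-2 cells transfected with scrambled mimic. Each of the 4 groups had 4 biological replicates, which gave 16 libraries, and all cells were collected 3 days after transfection. The labels name no cisplatin treatment. Each histology was thus modelled by 1 established line. NT2/D1 cells grew in DMEM and TCam-2 cells in RPMI, so line and medium cannot be told apart in any comparison of the lines. Every group received a mimic, so untransfected cells are not part of any comparison.

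Glutathione is made from cystine-derived cysteine, and it detoxifies peroxides through glutathione peroxidases and electrophiles, platinum drugs among them, through glutathione transferases. The transcription factor NRF2, encoded by NFE2L2, is held down by KEAP1 and, when released under oxidative stress, binds antioxidant response elements near genes for glutathione synthesis, quinone reduction and thioredoxin recycling. Cisplatin can enter cells through the copper transporter CTR1, encoded by SLC31A1, and copper ATPases and ABC exporters carry copper, platinum or glutathione conjugates away. Germ cell tumours are known for their sensitivity to cisplatin.

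The sequence of the mature miRNA and its matches in the members are shown first, since the mimic acts through its seed (bases 2 to 8, in capitals). The mature sequence from RefSeq on GRCh38.p14 (MIR9-2, chr5:88666902-88666924, minus strand) was as follows.
hsa-miR-9-5p: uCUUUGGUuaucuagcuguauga
All 40 members had a MANE Select 3' UTR in GENCODE release 44, and 3 of them held a match to all 7 seed bases, the letters ACCAAAG, there: GCLM, GPX8 and SLC31A2. None held the 8mer ACCAAAGA. GCLM and GPX8 are the tested members with such a match, and the 28 bases around it (GRCh38, sites at chr1:93888338-93888344 on the minus strand and chr5:55165566-55165572 on the plus strand, match in capitals) read as follows.
GCLM: ataaagacaaACCAAAGtaaatctgaaa
GPX8: acgtatttggACCAAAGttattagataa
The share of genes tested in NT2/D1 cells with such a match was 14.6% of 14145, against 2 of the 39 members tested. Counting also the 7-base match to seed bases 2 to 7 followed by A, the letters CCAAAGA, which ATP7A and GSTZ1 held, it was 24.0%, against 4 of 39 members, and in TCam-2 cells 23.6% of 13462, against 4 of 37. The members thus held these letters at a lower share than all genes, and the 35 other members tested in NT2/D1 cells held none of them. The shares were not adjusted for 3' UTR length, which ran from 50 bases in GSTO1 to 7859 bases in SLC7A11 among the members. A match is a description of letters and not evidence of a site in use.

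A second set of sequences is shown for the antioxidant response element, the letters TGACNNNGC on either strand, since many members are known NRF2 targets. RefSeq promoter windows of GRCh38.p14, from 250 bases before to 50 bases after a start, were found for 32 of the 40 members and did not include HMOX1, SLC7A11, GSS, GSR, ABCC1, ABCC3, MGST2 and SLC31A2. The 10 letters on each side of 6 of the matches are given with the match in capitals.
GCLM, chr1:93909446-93909474, minus strand: tacgatttctGCTTAGTCAttgtcttcca
TXNRD1, chr12:104286920-104286948, plus strand: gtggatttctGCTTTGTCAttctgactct
TXNRD1, chr12:104215670-104215698, plus strand: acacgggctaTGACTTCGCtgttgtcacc
GSTP1, chr11:67583736-67583764, plus strand: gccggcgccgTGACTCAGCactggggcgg
GSTO1, chr10:104254656-104254684, plus strand: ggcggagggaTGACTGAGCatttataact
KEAP1, chr19:10502784-10502812, minus strand: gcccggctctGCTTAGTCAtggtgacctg
In all, 10 of the 32 members held at least 1 match, or 31.3%, against 16.1% of 27305 genes. Some genes have several windows, and by window the shares were 11 of 47, or 23.4%, against 13.3% of 35116. The other members with a match were GSTM1, ABCG2, MGST1, ABCC4 and GGT1, and NQO1, GCLC and NFE2L2 had none in these windows. The 10 members with a match did not share 1 response, as the values below show.

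The labels were checked against markers of each histology. SOX2, an EC factor, averaged 367 ± 25.5 CPM (CPM is the count scaled to a library size, adjusted by TMM, of 1000000) in scrambled NT2/D1 cells and 1.54 ± 0.217 CPM in scrambled TCam-2 cells, and SOX17, a SEM factor, averaged 0.0264 ± 0.0529 CPM in scrambled NT2/D1 cells and 237 ± 11.98 CPM in scrambled TCam-2 cells (SD, n = 4 each). Of the 8 EC markers, 6 were higher and 2 lower in scrambled NT2/D1 than in scrambled TCam-2 cells. The lower ones were POU5F1 and L1TD1 (log2 fold changes -0.77 and -0.39), so not every gene of the EC list was particular to the EC line. A fall of EC markers in TCam-2 cells is thus not by itself a loss of EC identity. Of 7 SEM markers tested, 6 were lower in NT2/D1 cells and 0 higher, where 39.8% of all genes were higher and 39.4% lower. The SEM marker DND1 was at 0 in all groups. With MIR9-2-5p, 30.2% of all genes tested were higher and 29.1% lower in NT2/D1 cells, and 33.7% were higher and 32.7% lower in TCam-2 cells. All 8 EC markers were lower with MIR9-2-5p in NT2/D1 cells. Their summed level there was 1712 to 1801 CPM after MIR9-2-5p and 6327 to 6544 CPM after scrambled mimic. In TCam-2 cells 5 of 8 were lower and SALL4 was higher (log2 fold change 0.16). The sum there was 3616 to 3911 CPM after MIR9-2-5p and 4620.2 to 5184 CPM after scrambled mimic. SEM markers summed to 129 to 135 CPM after MIR9-2-5p and 143 to 158 CPM after scrambled mimic in NT2/D1 cells, where 2 of 5 tested rose and 2 fell, and to 1635 to 1764 CPM after MIR9-2-5p and 1397 to 1501 CPM after scrambled mimic in TCam-2 cells, where 4 of 7 rose and 2 fell. Of fibroblast markers, 5 of 6 tested were higher in NT2/D1 cells and POSTN was lower (log2 fold change -1.46). The summed level of all 8 there was 443 to 522 CPM after MIR9-2-5p and 162 to 220.4 CPM after scrambled mimic. In TCam-2 cells 4 of 5 were lower, with sums of 191 to 211 CPM after MIR9-2-5p and 464 to 486 CPM after scrambled mimic. DCN was at or near 0 in all groups. Blood markers summed to at most 1.12 CPM in any library, and Sertoli and Leydig markers to 66.8 to 79.4 CPM after MIR9-2-5p and 73.3 to 116 CPM after scrambled mimic in NT2/D1 cells and to 15.8 to 20.5 CPM after MIR9-2-5p and 22.2 to 25.3 CPM after scrambled mimic in TCam-2 cells. These markers moved in the same libraries as the results below, and their part in them was not tested. In bulk RNA, fewer cells of a type and less RNA per cell cannot be told apart. Libraries held 14167738 to 22427162 counts. Within groups, pairs of replicates differed unevenly, with a chi-square per degree of freedom of 1.98 to 19.2 over 24 pairs. It was highest for replicates 1 and 3 of the MIR9-2-5p TCam-2 cells and next highest for replicates 2 and 4 (18.2) and 1 and 2 (17.5) of the scrambled NT2/D1 cells, so each result was also computed without each library in turn.

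In NT2/D1 cells, the question was which of these genes changed with MIR9-2-5p. Of 39 members tested, 16 were higher, 10 were lower and 13 were not called at an edgeR adjusted p under 0.05. The background was high, since 30.2% of the 17586 genes tested were called higher and 29.1% lower (59.3% either way). All called members except GPX4 had groups without overlap, which made 25 of 39, against 52.0% of all genes. The median log2 fold change was 0.18 over the members and -0.02 over all genes tested. In TCam-2 cells 8 of 37 members were higher, 23 were lower and 6 were not called, where 33.7% of 16847 genes were called higher and 32.7% lower (66.3% either way), and the median log2 fold change was -0.34 over the members and 0.02 over all genes. The groups did not overlap for 29 of the 37 (59.0% of all genes), ABCG2 and GSTK1 being called with overlap. The responses of the lines were compared by an interaction term, given as the log2 fold change in NT2/D1 minus that in TCam-2 cells. It was positive and called for 25 of 39 members, negative and called for 6 and not called for 8, against 27.9% and 25.3% of 19576 genes (53.2% either way), with a median of 0.65 over the members and 0.00 over all genes.

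**Figure D1:**
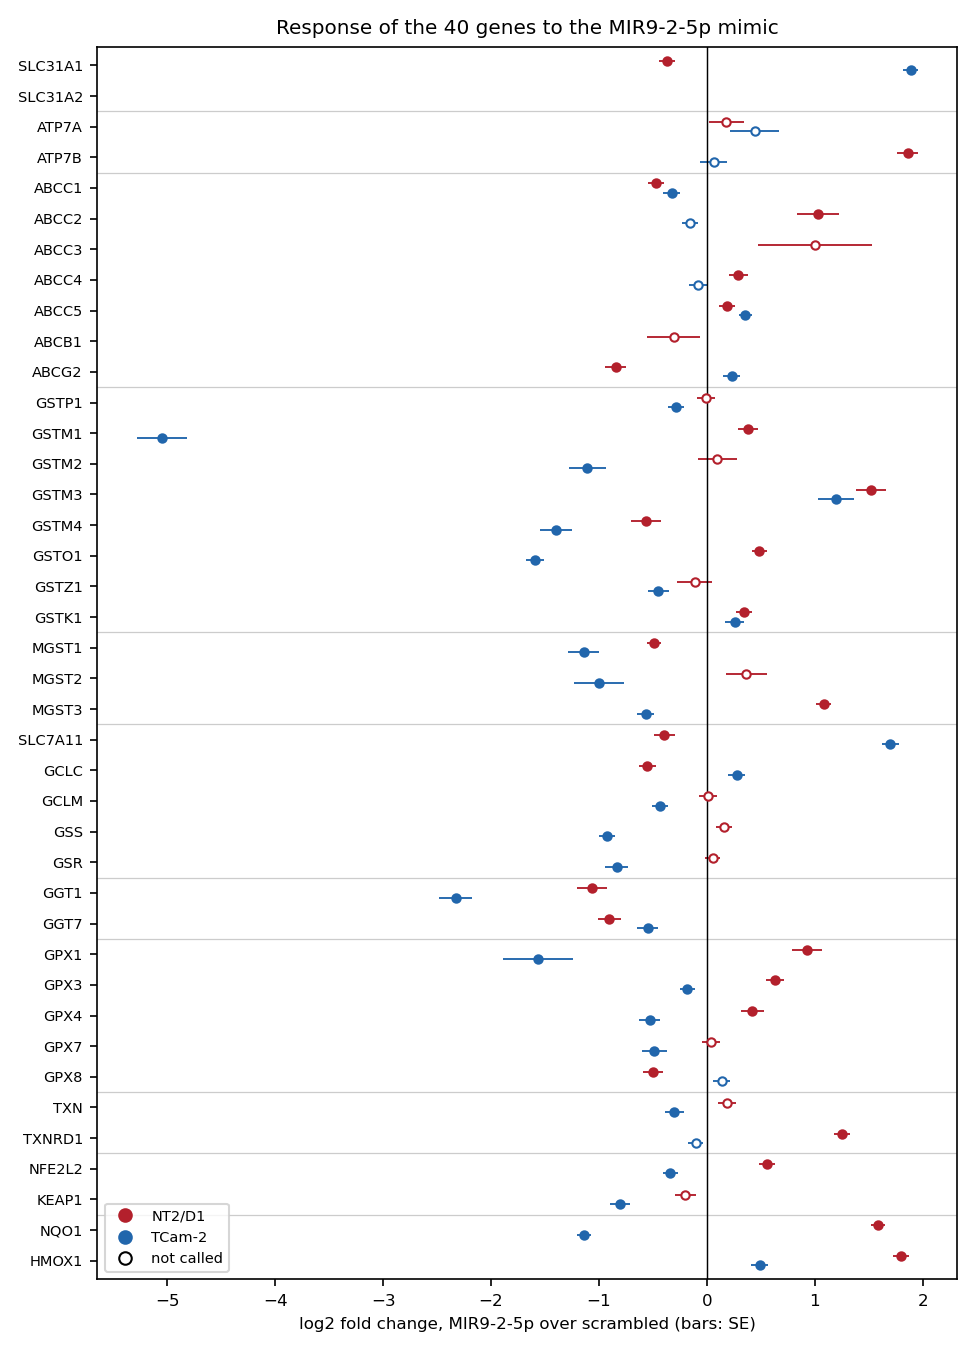
Response of each of the 40 genes to MIR9-2-5p, as the log2 fold change over the scrambled control (x axis, bars are SE) in NT2/D1 (red) and TCam-2 cells (blue), in blocks of like role, with open points for genes not called and no point where a gene was not tested. Points of both lines lie on opposite sides of 0 for 12 members called in both, such as NQO1 at 1.59 in NT2/D1 and -1.14 in TCam-2 cells.

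Of the 37 members tested in both lines, 12 were called in opposite directions, against 17.7% of 15173 genes. GPX1, GPX3, GPX4, GSTM1, GSTO1, MGST3, NFE2L2 and NQO1 rose in NT2/D1 cells but fell in the TCam-2 line (8 members, background 9.39%), and SLC31A1, SLC7A11, GCLC and ABCG2 did the reverse (4 members, background 8.28%). The difference between the lines was itself called for all 12. Many of these changes were small: when a change had to exceed 1.5-fold to be called, 2 members, GPX1 and NQO1, were called in opposite directions, against 2.68% of the genes, and on leaving out 1 library there were 10 to 14. Another 4 members rose in both lines, namely HMOX1, GSTM3, ABCC5 and GSTK1 (background 12.2%), and 5 fell in both, namely GGT1, GGT7, GSTM4, MGST1 and ABCC1 (background 11.6%). Of the rest, GCLM, GPX7, GSR, GSS, GSTM2, GSTP1, GSTZ1, KEAP1, MGST2 and TXN were called only as lower in TCam-2 cells. ATP7B, TXNRD1, ABCC2 and ABCC4 were called only as higher and GPX8 only as lower in NT2/D1 cells, while ATP7A was called in neither. The share of all genes called in a single line was not computed, so these members have no background beside them.

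NFE2L2, which encodes NRF2, rose in NT2/D1 cells but fell in the TCam-2 line. It had 116, 105, 122 and 124 CPM after MIR9-2-5p and 75.3, 83.6, 77.5 and 80.7 CPM after scrambled mimic in NT2/D1 cells. All MIR9-2-5p libraries were above all scrambled ones (log2 fold change 0.55, SE 0.07, edgeR adjusted p = 6.24e-06). TCam-2 cells had 56.1, 59.7, 64.7 and 62.9 CPM after MIR9-2-5p and 71.4, 81.2, 78.1 and 79.9 CPM after scrambled mimic, and the order was the opposite, with no overlap (log2 fold change -0.34, SE 0.07, edgeR adjusted p = 3.61e-04). The lines differed (difference 0.91, SE 0.10, edgeR adjusted p = 3.07e-08). The gene model of NFE2L2 overlaps HNRNPA3 (mean 659 CPM) and AGPS (77.1 CPM) on the other strand, and no source used here gives the strand setting of the counting, so reads of these genes may have been mixed. KEAP1, the adaptor that marks NRF2 for degradation, had 91.9, 111, 89.3 and 90.5 CPM after MIR9-2-5p and 115, 90.8, 105 and 126 CPM after scrambled mimic in NT2/D1 cells, where the groups overlapped (log2 fold change -0.20, SE 0.10, edgeR adjusted p = 0.0887). It was called lower there without replicate 2 of either group, at -0.27 (edgeR adjusted p = 0.0228) without the MIR9-2-5p library and -0.28 (edgeR adjusted p = 0.00862) without the scrambled one. In TCam-2 cells KEAP1 fell, with 26.3, 27.8, 19.7 and 23.3 CPM after MIR9-2-5p and 42.2, 41.3, 43.4 and 44.9 CPM after scrambled mimic and no overlap (log2 fold change -0.81, SE 0.10, edgeR adjusted p = 7.82e-07). NFE2L2 and KEAP1 transcripts thus fell together in TCam-2 cells.

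The classical NRF2 target enzymes NQO1 and HMOX1 both rose in NT2/D1 cells. NQO1, a quinone reductase, had 235, 223, 231 and 238 CPM after MIR9-2-5p and 74.1, 79.6, 78.1 and 75.1 CPM after scrambled mimic in NT2/D1 cells. The lowest MIR9-2-5p library was far above the highest scrambled library (log2 fold change 1.59, SE 0.06, edgeR adjusted p = 2.82e-12). In TCam-2 cells NQO1 had 110.2, 102, 122 and 113 CPM after MIR9-2-5p and 234, 260.2, 257 and 239 CPM after scrambled mimic, and here every MIR9-2-5p library was below every scrambled one (log2 fold change -1.14, SE 0.07, edgeR adjusted p = 1.17e-10). This gave the largest positive difference between the lines among members other than GSTM1 (difference 2.75, SE 0.09, edgeR adjusted p = 1.12e-17). HMOX1, which degrades haem, had 139, 153, 145 and 151 CPM after MIR9-2-5p and 44.9, 37.7, 40.9 and 44.5 CPM after scrambled mimic in NT2/D1 cells, and in contrast to NQO1 it rose in both lines (log2 fold change 1.80, SE 0.08, edgeR adjusted p = 4.74e-12 in NT2/D1 cells). TCam-2 cells had 45.6, 45.4, 42.6 and 41.6 CPM after MIR9-2-5p and 28.7, 31.7, 33.3 and 32.4 CPM after scrambled mimic, with no overlap (log2 fold change 0.49, SE 0.08, edgeR adjusted p = 1.70e-05). The rise was larger in NT2/D1 cells (difference 1.33, SE 0.10, edgeR adjusted p = 6.24e-11).

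TXNRD1, the cytosolic thioredoxin reductase, rose in NT2/D1 cells, with 535, 544, 596 and 581 CPM after MIR9-2-5p and 231, 258, 239.7 and 215 CPM after scrambled mimic. The lowest MIR9-2-5p library was over 2 times the highest scrambled one (log2 fold change 1.25, SE 0.07, edgeR adjusted p = 1.39e-10). TCam-2 cells had 174, 157, 188 and 178 CPM after MIR9-2-5p and 202, 181, 186 and 185 CPM after scrambled mimic, and the groups overlapped (log2 fold change -0.10, SE 0.07, edgeR adjusted p = 0.204), although it was called lower without MIR9-2-5p replicate 3, at -0.14 (edgeR adjusted p = 0.0456). The difference between the lines was called (difference 1.37, SE 0.10, edgeR adjusted p = 1.01e-11), and TXNRD1 holds 3 element matches, 2 of them shown above. Its substrate TXN averaged 307 ± 28.7 CPM after MIR9-2-5p and 269 ± 23.7 CPM after scrambled mimic in NT2/D1 cells (SD, n = 4 each; log2 fold change 0.19, not called, but called without scrambled replicate 2 or 4 or MIR9-2-5p replicate 2 or without the filter on low counts, at 0.21 to 0.25). In TCam-2 cells TXN was lower, at 120.1 ± 12.1 CPM after MIR9-2-5p and 149.7 ± 20.1 CPM after scrambled mimic (SD, n = 4 each; log2 fold change -0.30, SE 0.09, edgeR adjusted p = 0.00552).

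**Figure D2:**
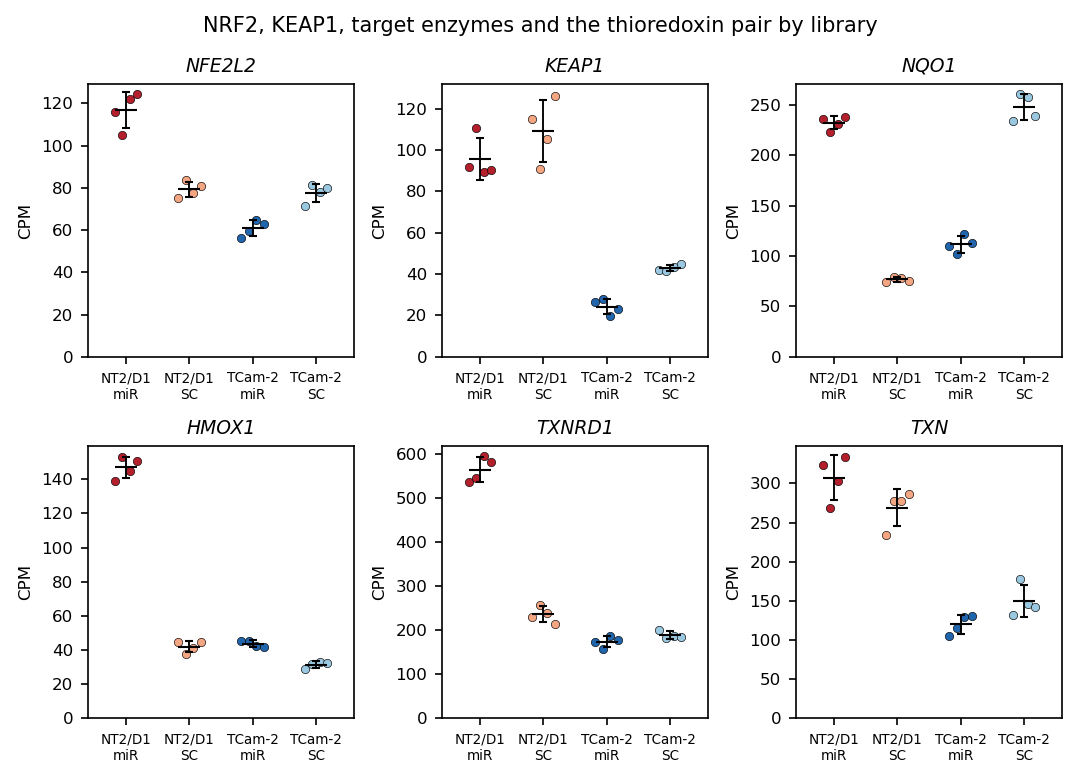
Level in CPM (y axis, from 0) of NFE2L2, KEAP1, NQO1, HMOX1, TXNRD1 and TXN in each library, with MIR9-2-5p (miR) left of the scrambled control (SC) in NT2/D1 and then TCam-2 cells (points are libraries, bars are mean and SD, n = 4). NQO1 averaged 232 CPM after MIR9-2-5p and 76.7 CPM after scrambled mimic in NT2/D1 cells, and 112 CPM after MIR9-2-5p and 248 CPM after the scrambled control in TCam-2 cells.

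Other genes known as NRF2 targets were counted in a list of 25 that holds none of the 40. In NT2/D1 cells 9 of 21 tested were higher and 6 were lower (median log2 fold change 0.20), and in TCam-2 cells 4 of 22 were higher and 13 were lower (median -0.28), while the medians of all genes were -0.02 and 0.02. Of all genes tested, 30.2% were higher and 29.1% lower in NT2/D1 cells, and 33.7% and 32.7% in TCam-2 cells. OSGIN1, a growth inhibitor induced by oxidative stress, and FTL, the ferritin light chain, had log2 fold changes of 2.73 and 1.14 in NT2/D1 cells, where EPHX1, an epoxide hydrolase, and UGDH, a UDP-glucose dehydrogenase, had -0.89 and -0.62. In TCam-2 cells the ferritin heavy chain FTH1 and the aldose reductase AKR1B1 were higher, at 0.59 and 0.39, and CBR1, a carbonyl reductase, and GPX2, a peroxidase, were lower, at -1.66 and -1.60. The difference between the lines was called positive for 13 of 22 and negative for 4 (median 0.68), with OSGIN1 at 3.86. It was positive for 27.9% and negative for 25.3% of all genes tested.

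Among 15 partners and regulators of NRF2, 7 were higher and 5 lower in NT2/D1 cells and 5 were higher and 4 lower in TCam-2 cells, with medians of 0.15 and -0.03. The shares over all genes tested were 30.2% higher and 29.1% lower in NT2/D1 cells and 33.7% higher and 32.7% lower in TCam-2 cells. MAFF, a small MAF protein that pairs with NRF2, rose in NT2/D1 cells by 1.34 on the log2 scale, and MAFG, another, had -0.39. BACH2, a repressor that competes for the same elements, rose in both lines, at 0.58 in NT2/D1 and 1.70 in TCam-2 cells, and the NRF2 relative NFE2L3 fell in both, at -1.53 and -0.95. NFE2L1, a relative of NRF2 that controls proteasome genes, rose in TCam-2 cells (0.84), where DPP3, which binds KEAP1, fell (-1.23). These values are log2 fold changes, and all of them passed an edgeR adjusted p under 0.05.

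SLC31A1, the copper transporter CTR1 through which cisplatin can enter cells, fell slightly in NT2/D1 cells and rose strongly in TCam-2 cells. In NT2/D1 cells it had 78.6, 80.7, 89.7 and 80.0 CPM after MIR9-2-5p and 105, 108, 113 and 96.7 CPM after scrambled mimic, without overlap (log2 fold change -0.37, SE 0.07, edgeR adjusted p = 4.29e-04). In TCam-2 cells it had 182, 172, 199 and 181 CPM after MIR9-2-5p and 48.4, 49.4, 51.7 and 50.5 CPM after scrambled mimic. Every MIR9-2-5p library of TCam-2 cells held over 3 times the level of any scrambled one (log2 fold change 1.89, SE 0.07, edgeR adjusted p = 3.55e-13), and the lines differed (difference -2.24, SE 0.10, edgeR adjusted p = 1.18e-15). SLC31A1 overlaps CDC26 (mean 10.4 CPM) on the other strand. Its relative SLC31A2 had only 12 counts in all after MIR9-2-5p and 9 after scrambled mimic in NT2/D1 cells, and 19 counts after MIR9-2-5p and 16 after scrambled mimic in TCam-2 cells, and it was not tested.

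ATP7A and ATP7B encode copper ATPases that move copper into the secretory pathway and out of the cell, and of these ATP7B rose in NT2/D1 cells. ATP7B had 35.7, 39.0, 35.7 and 36.0 CPM after MIR9-2-5p and 9.99, 8.68, 10.8 and 10.6 CPM after scrambled mimic in NT2/D1 cells. The groups lay far apart (log2 fold change 1.86, SE 0.09, edgeR adjusted p = 4.46e-11). TCam-2 cells had 7.94, 6.82, 7.21 and 7.94 CPM after MIR9-2-5p and 7.61, 7.04, 7.80 and 6.40 CPM after scrambled mimic, which overlapped (log2 fold change 0.07, SE 0.12, edgeR adjusted p = 0.659), and the difference between the lines was called (difference 1.81, SE 0.14, edgeR adjusted p = 1.16e-10). ATP7A had 8.08, 6.36, 7.99 and 6.22 CPM after MIR9-2-5p and 5.61, 8.68, 5.44 and 5.60 CPM after scrambled mimic in NT2/D1 cells, and 3.77, 2.97, 6.93 and 5.88 CPM after MIR9-2-5p and 4.30, 3.34, 3.38 and 3.34 CPM after scrambled mimic in TCam-2 cells. The groups overlapped in both lines, at log2 fold change 0.18, SE 0.17, edgeR adjusted p = 0.36 in NT2/D1 and log2 fold change 0.44, SE 0.23, edgeR adjusted p = 0.0933 in TCam-2 cells. Both results depended on single libraries: ATP7A was called higher in NT2/D1 cells without scrambled replicate 2, at 0.37 (edgeR adjusted p = 0.0402), and in TCam-2 cells without MIR9-2-5p replicate 1 or 2, at 0.56 (edgeR adjusted p = 0.048) and 0.62 (edgeR adjusted p = 0.0163). Its gene model overlaps PGK1 (mean 532 CPM) on the same strand.

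The ABC exporters, which pump drugs and conjugates out of cells, gave mixed results: of 7 tested in NT2/D1 cells 3 were higher and 2 lower, and of 5 in TCam-2 cells 2 were higher and 1 lower. Over all genes tested, 30.2% were higher and 29.1% lower in NT2/D1 cells and 33.7% higher and 32.7% lower in TCam-2 cells. ABCC1, or MRP1, fell in both lines, with 69.6, 74.9, 74.4 and 67.5 CPM after MIR9-2-5p and 109, 97.0, 98.2 and 92.0 CPM after scrambled mimic in NT2/D1 cells (log2 fold change -0.47, SE 0.07, edgeR adjusted p = 3.74e-05). In TCam-2 cells ABCC1 had 61.8, 62.6, 56.4 and 58.1 CPM after MIR9-2-5p and 84.3, 68.2, 76.5 and 72.5 CPM after scrambled mimic (log2 fold change -0.32, SE 0.08, edgeR adjusted p = 0.00154), and neither line's groups overlapped. ABCC2, or MRP2, an exporter of glutathione conjugates linked to platinum resistance, had 5.01, 3.56, 4.95 and 5.29 CPM after MIR9-2-5p and 2.64, 1.58, 2.65 and 2.27 CPM after scrambled mimic in NT2/D1 cells. It was higher there, over a level of 26 to 58 counts per scrambled library (log2 fold change 1.03, SE 0.20, edgeR adjusted p = 2.60e-04). In TCam-2 cells ABCC2 had 45.5, 46.7, 54.4 and 45.8 CPM after MIR9-2-5p and 51.9, 50.8, 58.1 and 55.5 CPM after scrambled mimic, with overlap (log2 fold change -0.16, SE 0.08, edgeR adjusted p = 0.0877), and it was called lower there without MIR9-2-5p replicate 3, at -0.22 (edgeR adjusted p = 0.00669), or scrambled replicate 2, at -0.21 (edgeR adjusted p = 0.045). The lines differed (difference 1.20, SE 0.18, edgeR adjusted p = 5.02e-06).

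ABCG2, an ABC transporter that exports drugs and porphyrins, fell in NT2/D1 cells, with 15.4, 13.6, 16.5 and 16.2 CPM after MIR9-2-5p and 25.1, 28.8, 30.1 and 26.4 CPM after scrambled mimic (log2 fold change -0.84, SE 0.10, edgeR adjusted p = 1.21e-06). In TCam-2 cells it was called higher, with 73.5, 78.9, 92.0 and 82.6 CPM after MIR9-2-5p and 76.6, 72.3, 67.0 and 65.1 CPM after scrambled mimic (log2 fold change 0.23, SE 0.08, edgeR adjusted p = 0.0193). These TCam-2 groups overlapped, and the call was lost without scrambled replicate 3, at 0.19 (edgeR adjusted p = 0.0865), or 4, at 0.18 (edgeR adjusted p = 0.102). ABCG2 differed between the lines (difference -1.06, SE 0.12, edgeR adjusted p = 8.16e-08). ABCC4 averaged 27.9 ± 1.86 CPM after MIR9-2-5p and 22.8 ± 1.03 CPM after scrambled mimic in NT2/D1 cells (SD, n = 4 each; log2 fold change 0.29, SE 0.09, edgeR adjusted p = 0.00795) and was not called in TCam-2 cells (log2 fold change -0.08). ABCC5 was called higher in both lines, by 0.19 in NT2/D1 and 0.36 in TCam-2 cells on the log2 scale. Its NT2/D1 call was lost without scrambled replicate 3 or 4 or MIR9-2-5p replicate 2 or 3, at 0.14 to 0.20. ABCC3 had 81 counts after MIR9-2-5p and 37 after scrambled mimic over the NT2/D1 libraries and was not called (log2 fold change 1.001, SE 0.53, edgeR adjusted p = 0.114), but was called higher without MIR9-2-5p replicate 3, at 1.34 (edgeR adjusted p = 0.0211), and it had 4 counts after MIR9-2-5p and 3 after scrambled mimic in TCam-2 cells, where it was not tested. ABCB1, the multidrug exporter P-glycoprotein, had 26, 23, 29 and 29 counts after MIR9-2-5p and 33, 27, 34 and 24 counts after scrambled mimic in NT2/D1 cells, which overlapped (log2 fold change -0.31, SE 0.24, edgeR adjusted p = 0.298), and 4 and 0 counts over the MIR9-2-5p and scrambled libraries of TCam-2 cells.

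**Figure D3:**
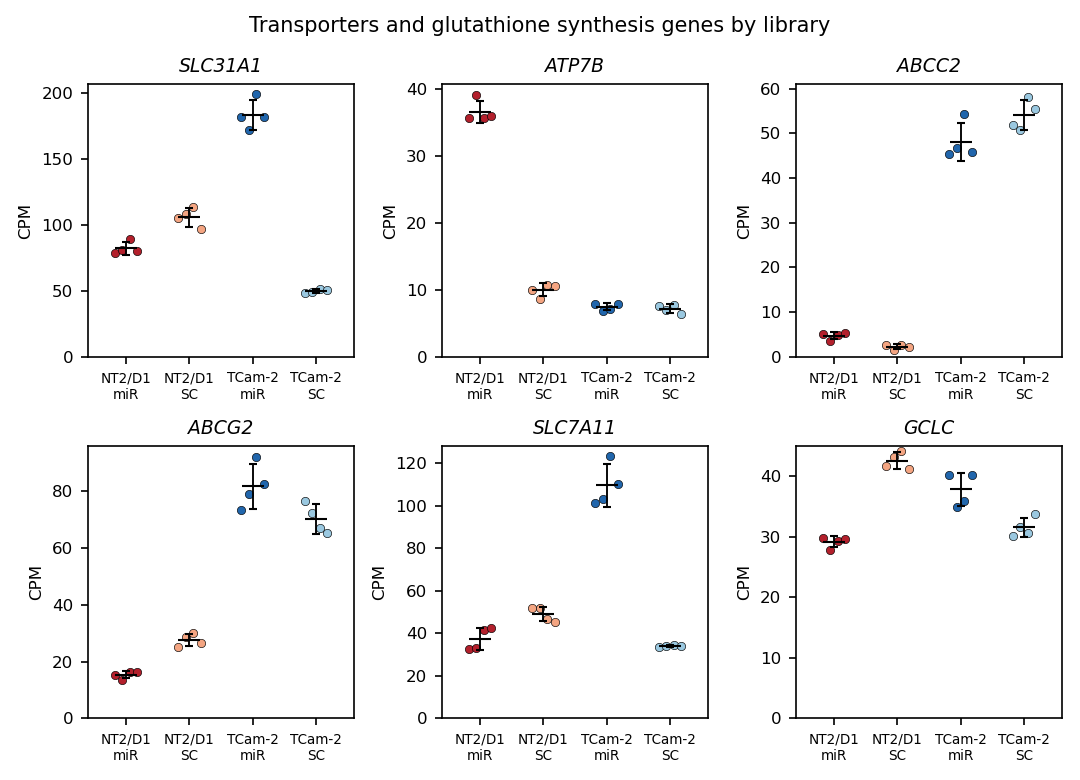
Level in CPM (y axis, from 0) of SLC31A1, ATP7B, ABCC2, ABCG2, SLC7A11 and GCLC in each library, drawn as in the plot of NRF2 genes. SLC31A1 and SLC7A11 averaged 183 and 109.7 CPM after MIR9-2-5p in TCam-2 cells, against 49.97 and 34.0 CPM after scrambled mimic, while both were lower with MIR9-2-5p in NT2/D1 cells.

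Of other genes of copper and platinum handling, 4 of 17 were higher and 8 lower in NT2/D1 cells (median -0.13) and 4 of 13 were higher and 5 lower in TCam-2 cells (median 0.03). The background was 30.2% higher and 29.1% lower in NT2/D1 cells and 33.7% higher and 32.7% lower in TCam-2 cells. SLC22A3, an organic cation transporter, had a log2 fold change of -1.44 in NT2/D1 cells. SLC47A1, or MATE1, an exporter of organic cations, had -0.99 in NT2/D1 and 0.94 in TCam-2 cells, and the difference was called, at -1.91. The copper chaperone ATOX1 was higher in NT2/D1 cells (0.45), with ABCC6 (0.996), and the copper chaperones CCS and COX17 were lower in TCam-2 cells (-1.06 and -0.73). LRRC8B, a subunit of the volume-regulated anion channel, was higher in TCam-2 cells (0.92).

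SLC7A11, the cystine importer xCT that supplies cysteine for glutathione, fell in NT2/D1 cells but rose in the TCam-2 line. It had 32.8, 33.1, 41.5 and 42.4 CPM after MIR9-2-5p and 52.1, 52.2, 46.8 and 45.5 CPM after scrambled mimic in NT2/D1 cells, without overlap (log2 fold change -0.39, SE 0.10, edgeR adjusted p = 0.00235). In TCam-2 cells it had 101, 103, 124 and 110.4 CPM after MIR9-2-5p and 33.6, 33.9, 34.3 and 34.1 CPM after scrambled mimic. All MIR9-2-5p libraries of TCam-2 cells lay far above all scrambled ones (log2 fold change 1.70, SE 0.08, edgeR adjusted p = 3.76e-12), and the lines differed (difference -2.08, SE 0.13, edgeR adjusted p = 6.44e-13). GCLC, the catalytic subunit of the rate-limiting enzyme of glutathione synthesis, had the same directions, with 29.9, 27.8, 29.4 and 29.6 CPM after MIR9-2-5p and 41.7, 43.2, 44.2 and 41.2 CPM after scrambled mimic in NT2/D1 cells (log2 fold change -0.55, SE 0.08, edgeR adjusted p = 8.91e-06). In TCam-2 cells GCLC had 40.2, 35.0, 36.0 and 40.1 CPM after MIR9-2-5p and 30.1, 31.6, 30.7 and 33.7 CPM after scrambled mimic (log2 fold change 0.28, SE 0.08, edgeR adjusted p = 0.00483). Neither line's groups overlapped, and the difference between the lines was called (difference -0.81, SE 0.10, edgeR adjusted p = 4.11e-07).

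GCLM, the modifier subunit of the same enzyme, did not go with GCLC. It had 58.8, 52.7, 60.0 and 66.1 CPM after MIR9-2-5p and 55.4, 60.2, 60.3 and 59.3 CPM after scrambled mimic in NT2/D1 cells, with overlap (log2 fold change 0.01, SE 0.08, edgeR adjusted p = 0.923, 95% interval -0.15 to 0.17). In TCam-2 cells GCLM had 42.4, 45.5, 44.9 and 43.6 CPM after MIR9-2-5p and 67.1, 57.8, 57.2 and 58.0 CPM after scrambled mimic, and every MIR9-2-5p library was below every scrambled one (log2 fold change -0.43, SE 0.08, edgeR adjusted p = 8.27e-05). GCLM is 1 of the members whose 3' UTR holds a seed match, and its promoter holds an antioxidant response element match. GSS, which joins glycine to the dipeptide, and GSR, which reduces oxidised glutathione, were not called in NT2/D1 cells (log2 fold changes 0.16 and 0.05). Both fell in TCam-2 cells. GSS averaged 52.8 ± 2.85 CPM after MIR9-2-5p and 101 ± 8.53 CPM after scrambled mimic (SD, n = 4 each; log2 fold change -0.93, SE 0.07, edgeR adjusted p = 4.38e-09), and GSR averaged 16.8 ± 2.19 CPM after MIR9-2-5p and 30.3 ± 2.31 CPM after scrambled mimic (SD, n = 4 each; log2 fold change -0.84, SE 0.10, edgeR adjusted p = 1.45e-06). Thus the synthesis and reduction genes parted in TCam-2 cells, with SLC7A11 and GCLC higher and GCLM, GSS and GSR lower.

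The gamma-glutamyl transferases GGT1 and GGT7 fell in both lines. GGT1, which starts the breakdown of glutathione outside the cell, had 4.82, 5.77, 5.95 and 4.41 CPM after MIR9-2-5p and 11.4, 8.93, 11.2 and 12.2 CPM after scrambled mimic in NT2/D1 cells (log2 fold change -1.07, SE 0.14, edgeR adjusted p = 5.03e-06). In TCam-2 cells it had 3.37, 3.38, 2.52 and 2.06 CPM after MIR9-2-5p and 13.8, 16.9, 14.3 and 12.7 CPM after scrambled mimic, and in both lines the groups lay apart (log2 fold change -2.33, SE 0.16, edgeR adjusted p = 5.74e-10 in TCam-2 cells). The fall was larger in TCam-2 cells (difference 1.28, SE 0.22, edgeR adjusted p = 2.41e-05). GGT1 has near-identical copies, so its counts are uncertain where reads could be split among them. GGT7 averaged 15.2 ± 1.84 CPM after MIR9-2-5p and 28.3 ± 2.66 CPM after scrambled mimic in NT2/D1 cells (SD, n = 4 each; log2 fold change -0.90, SE 0.10, edgeR adjusted p = 1.25e-06), and its log2 fold change in TCam-2 cells was -0.55. The GGT7 model overlaps ACSS2 (mean 54.5 CPM) on the other strand. The difference between the lines was -0.34 for GGT7 and was not called, but it was called without replicate 2 of the MIR9-2-5p NT2/D1, the scrambled NT2/D1 or the scrambled TCam-2 cells or replicate 3 of the MIR9-2-5p TCam-2 cells, at -0.43 to -0.39. In a list of other glutathione genes, 4 of 18 rose and 7 fell in NT2/D1 cells (median -0.24). In TCam-2 cells 5 of 18 rose and 7 fell (median -0.15). Shares over all genes tested were 30.2% higher and 29.1% lower in NT2/D1 cells and 33.7% higher and 32.7% lower in TCam-2 cells. CHAC1, which cleaves glutathione inside the cell, had log2 fold changes of -1.16 for NT2/D1 and 2.08 for TCam-2, and the difference of -3.21 was called.

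Of 8 soluble glutathione transferases, which conjugate electrophiles to glutathione, 4 were higher and 1 lower in NT2/D1 cells, and 2 were higher and 6 lower in TCam-2 cells. Among all genes tested, 30.2% were higher and 29.1% lower in NT2/D1 cells, and 33.7% were higher and 32.7% lower in TCam-2 cells. GSTP1, a pi-class enzyme linked to platinum detoxification, had 1091, 1124, 967 and 1042 CPM after MIR9-2-5p and 1113, 889, 1029 and 1205 CPM after scrambled mimic in NT2/D1 cells, with overlap (log2 fold change -0.01, SE 0.08, edgeR adjusted p = 0.933, 95% interval -0.17 to 0.15). In TCam-2 cells GSTP1 had 2770.1, 2928, 2333 and 2866 CPM after MIR9-2-5p and 3125, 3655, 3302 and 3339 CPM after scrambled mimic, and all MIR9-2-5p libraries were lower (log2 fold change -0.29, SE 0.07, edgeR adjusted p = 0.00176). The difference between the lines (difference 0.30, SE 0.12, edgeR adjusted p = 0.0335) was lost without any 1 of 8 libraries, at 0.23 to 0.29, and at 0.27 (DESeq2 adjusted p = 0.0549) with DESeq2. These were MIR9-2-5p replicates 1 and 2 and scrambled replicates 2 and 3 of NT2/D1 cells, and MIR9-2-5p replicate 3 and scrambled replicates 2, 3 and 4 of TCam-2 cells. GSTO1, an omega-class enzyme, had 95.2, 98.1, 101 and 106 CPM after MIR9-2-5p and 68.4, 72.8, 68.8 and 75.0 CPM after scrambled mimic in NT2/D1 cells, all higher with MIR9-2-5p (log2 fold change 0.49, SE 0.07, edgeR adjusted p = 1.39e-05). In TCam-2 cells GSTO1 had 74.6, 75.2, 82.0 and 77.2 CPM after MIR9-2-5p and 196, 265, 257 and 221 CPM after scrambled mimic, and there the lowest scrambled library held over 2 times the level of the highest MIR9-2-5p one (log2 fold change -1.59, SE 0.08, edgeR adjusted p = 2.28e-11). The lines differed (difference 2.10, SE 0.11, edgeR adjusted p = 7.77e-14).

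The mu-class genes lie in a cluster and are close in sequence, and GSTM1 and GSTM2 overlap on the same strand, so values of GSTM1, GSTM2 and GSTM4 are uncertain where reads could be split among them. GSTM1 had the largest fall among the members. It had 0.201, 0.237, 0.476 and 0.228 CPM after MIR9-2-5p and 10.6, 9.90, 8.60 and 8.79 CPM after scrambled mimic in TCam-2 cells. In counts this was 4, 4, 7 and 4 after MIR9-2-5p and 182, 190, 150 and 129 after scrambled mimic, without overlap (log2 fold change -5.05, SE 0.23, edgeR adjusted p = 5.61e-12). In NT2/D1 cells GSTM1 had 15.7, 16.3, 16.02 and 17.0 CPM after MIR9-2-5p and 13.3, 11.4, 12.2 and 12.8 CPM after scrambled mimic, a small rise without overlap (log2 fold change 0.38, SE 0.10, edgeR adjusted p = 0.00257), and the lines differed (difference 5.45, SE 0.23, edgeR adjusted p = 9.18e-16). GSTM2 had 4.62, 5.82, 4.60 and 3.48 CPM after MIR9-2-5p and 3.31, 4.25, 5.03 and 4.55 CPM after scrambled mimic in NT2/D1 cells, with overlap (log2 fold change 0.10, SE 0.18, edgeR adjusted p = 0.666). In TCam-2 cells GSTM2 had 2.46, 1.96, 2.45 and 3.20 CPM after MIR9-2-5p and 4.94, 5.37, 5.62 and 6.06 CPM after scrambled mimic (log2 fold change -1.11, SE 0.17, edgeR adjusted p = 2.01e-05). It fell there without overlap, by far less than GSTM1. GSTM4 fell in both lines, with 5.55, 5.18, 5.69 and 6.68 CPM after MIR9-2-5p and 6.90, 9.96, 8.74 and 8.56 CPM after scrambled mimic in NT2/D1 cells (log2 fold change -0.57, SE 0.14, edgeR adjusted p = 0.0023) and 3.97, 5.34, 6.05 and 6.05 CPM after MIR9-2-5p and 11.1, 15.8, 15.1 and 14.6 CPM after scrambled mimic in TCam-2 cells (log2 fold change -1.40, SE 0.15, edgeR adjusted p = 1.63e-07). GSTM3 rose in both, with 19.6, 20.3, 18.2 and 15.96 CPM after MIR9-2-5p and 5.22, 8.50, 6.13 and 5.97 CPM after scrambled mimic in NT2/D1 cells (log2 fold change 1.52, SE 0.14, edgeR adjusted p = 7.12e-08) and 6.18, 4.86, 6.53 and 5.31 CPM after MIR9-2-5p and 2.67, 2.81, 2.35 and 2.18 CPM after scrambled mimic in TCam-2 cells (log2 fold change 1.20, SE 0.17, edgeR adjusted p = 5.86e-06). Neighbouring mu-class genes thus moved in different directions in the same cells.

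GSTK1, a kappa-class enzyme, had small rises, at log2 fold changes of 0.34 for NT2/D1 and 0.26 for TCam-2. The TCam-2 groups overlapped, and the call there was lost without scrambled replicate 1, at 0.18 (edgeR adjusted p = 0.0829), or 3, at 0.24 (edgeR adjusted p = 0.0564). GSTZ1, the zeta-class enzyme of tyrosine breakdown, was not called in NT2/D1 cells (-0.11) and fell in TCam-2 cells, with 14.3 ± 1.35 CPM after MIR9-2-5p and 19.7 ± 1.27 CPM after scrambled mimic (SD, n = 4 each; log2 fold change -0.45, SE 0.10, edgeR adjusted p = 6.82e-04). Differences between the lines were not called for GSTM3 and GSTZ1 (0.34 and 0.35), but both were called without scrambled NT2/D1 replicate 2, at 0.50 (edgeR adjusted p = 0.0429) and 0.49 (edgeR adjusted p = 0.0266). The 3 membrane-bound transferases all fell in TCam-2 cells, where 32.7% of all genes tested were lower. MGST1, a microsomal enzyme with peroxidase activity, had 4.53, 5.46, 5.23 and 5.77 CPM after MIR9-2-5p and 8.88, 13.1, 11.3 and 13.5 CPM after scrambled mimic in TCam-2 cells (log2 fold change -1.14, SE 0.14, edgeR adjusted p = 1.42e-06). It fell in NT2/D1 cells as well, at a far higher level, with 424, 386, 423 and 426 CPM after MIR9-2-5p and 546, 575, 592 and 611 CPM after scrambled mimic (log2 fold change -0.49, SE 0.06, edgeR adjusted p = 4.13e-06). The MGST1 model overlaps LMO3 (mean 12.9 CPM over all libraries) on the other strand. That of MGST2 overlaps MAML3 and the pseudogene H3P16 on the other strand (mean 4.15 and 1.76 CPM over all libraries). MGST2 itself had group means of 1.53 to 5.31 CPM, so reads of these genes may have been mixed. MGST3 had 230.2, 221, 221 and 242 CPM after MIR9-2-5p and 101, 101, 113 and 115 CPM after scrambled mimic in NT2/D1 cells, with no overlap (log2 fold change 1.08, SE 0.07, edgeR adjusted p = 9.57e-10). In TCam-2 cells MGST3 had 63.3, 74.0, 73.8 and 72.3 CPM after MIR9-2-5p and 91.3, 115, 108 and 109 CPM after scrambled mimic, the opposite order and without overlap (log2 fold change -0.57, SE 0.08, edgeR adjusted p = 4.24e-06), and the lines differed (difference 1.67, SE 0.11, edgeR adjusted p = 1.94e-12). MGST2 averaged 1.53 ± 0.391 CPM after MIR9-2-5p and 3.09 ± 0.545 CPM after scrambled mimic in TCam-2 cells (SD, n = 4 each; log2 fold change -0.996, SE 0.23, edgeR adjusted p = 0.00105) and was not called in NT2/D1 cells (0.36), but was called there without scrambled replicate 4, at 0.51 (edgeR adjusted p = 0.0383).

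**Figure D4:**
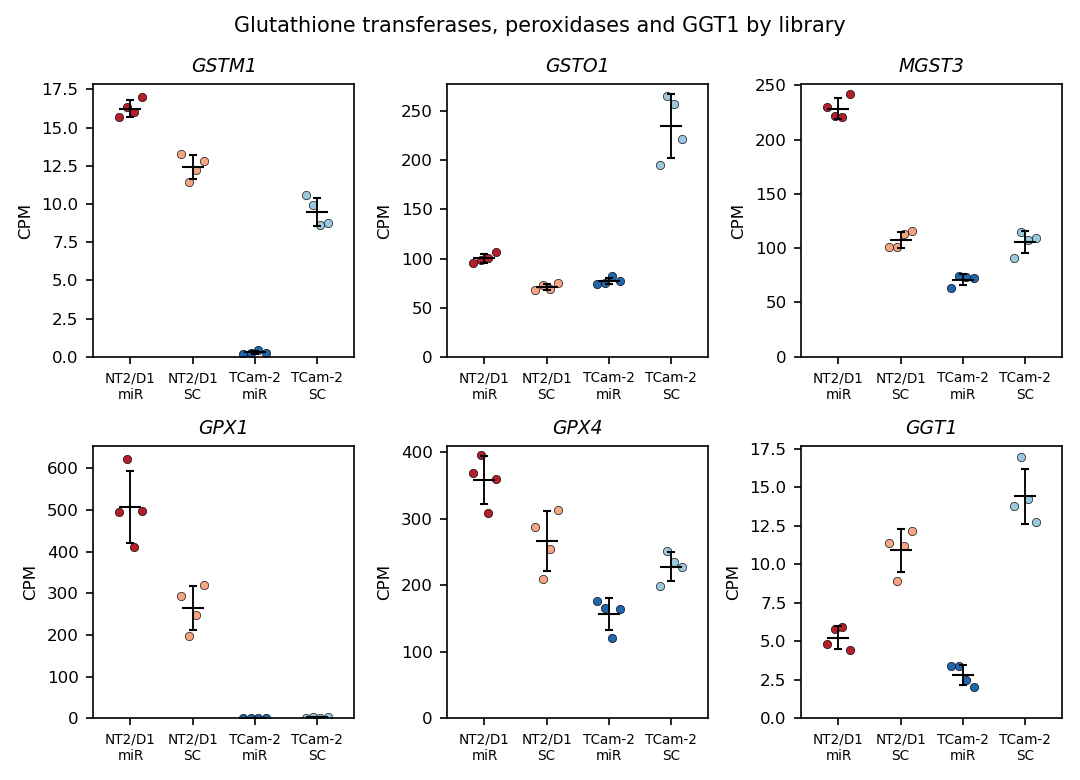
Level in CPM (y axis, from 0) of GSTM1, GSTO1, MGST3, GPX1, GPX4 and GGT1 in each library, drawn as in the plot of NRF2 genes. GSTM1 averaged 0.286 CPM after MIR9-2-5p and 9.47 CPM after scrambled mimic in TCam-2 cells, and GPX1 was near 0 in both TCam-2 groups on the scale of its NT2/D1 level.

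The glutathione peroxidases GPX1, GPX3 and GPX4 rose in NT2/D1 cells but fell in the TCam-2 line. GPX1, which reduces hydrogen peroxide in the cytosol, had 495, 623, 412 and 498 CPM after MIR9-2-5p and 294, 199, 248 and 319 CPM after scrambled mimic in NT2/D1 cells, without overlap (log2 fold change 0.93, SE 0.14, edgeR adjusted p = 4.95e-05). In TCam-2 cells GPX1 was near 0, with 21, 13, 6 and 13 counts after MIR9-2-5p and 26, 46, 33 and 50 counts after scrambled mimic. These are 1.06, 0.771, 0.408 and 0.742 CPM after MIR9-2-5p and 1.51, 2.40, 1.89 and 3.41 CPM after scrambled mimic, which did not overlap (log2 fold change -1.56, SE 0.32, edgeR adjusted p = 3.52e-04). GPX1 differed between the lines (difference 2.49, SE 0.41, edgeR adjusted p = 6.17e-05). The GPX1 model overlaps a second protein-coding model on the same strand, which the count table does not list. GPX4, the phospholipid hydroperoxidase that blocks ferroptosis, had 368, 395, 309 and 359 CPM after MIR9-2-5p and 288, 209, 255 and 313 CPM after scrambled mimic in NT2/D1 cells. It was called higher there, but 1 MIR9-2-5p library lay below the highest scrambled one (log2 fold change 0.42, SE 0.11, edgeR adjusted p = 0.0026). In TCam-2 cells GPX4 had 176, 166, 121 and 164 CPM after MIR9-2-5p and 198, 252, 235 and 227 CPM after scrambled mimic, all lower with MIR9-2-5p (log2 fold change -0.53, SE 0.10, edgeR adjusted p = 1.54e-04), and the lines differed (difference 0.97, SE 0.17, edgeR adjusted p = 8.01e-05). GPX3, the secreted enzyme, had 26.0, 24.7, 26.0 and 26.5 CPM after MIR9-2-5p and 16.2, 16.6, 16.8 and 17.0 CPM after scrambled mimic in NT2/D1 cells (log2 fold change 0.63, SE 0.08, edgeR adjusted p = 6.37e-06). In TCam-2 cells GPX3 had 74.5, 77.5, 71.6 and 76.0 CPM after MIR9-2-5p and 80.4, 88.4, 90.4 and 83.4 CPM after scrambled mimic. The groups did not overlap, but the fall was small (log2 fold change -0.18, SE 0.06, edgeR adjusted p = 0.0219) and was lost without scrambled replicate 3, at -0.17 (edgeR adjusted p = 0.0615), or without the filter on low counts, at -0.19 (edgeR adjusted p = 0.051). The lines differed (difference 0.83, SE 0.09, edgeR adjusted p = 6.68e-08). GPX7 and GPX8, peroxidases of the endoplasmic reticulum, parted. GPX7 had log2 fold changes of 0.04 (not called) for NT2/D1 and -0.49 (called) for TCam-2. GPX8, the other tested member with a seed match, had 46.6, 42.2, 49.5 and 50.5 CPM after MIR9-2-5p and 63.4, 71.8, 72.6 and 58.1 CPM after scrambled mimic in NT2/D1 cells, without overlap (log2 fold change -0.50, SE 0.09, edgeR adjusted p = 1.32e-04). GPX8 had 32.7, 30.0, 36.2 and 36.9 CPM after MIR9-2-5p and 30.7, 31.5, 31.7 and 30.7 CPM after scrambled mimic in TCam-2 cells, with overlap (log2 fold change 0.14, SE 0.08, edgeR adjusted p = 0.152). Of the 2 tested members with a full seed match, GPX8 fell in NT2/D1 cells and GCLM in TCam-2 cells. Among all genes with such a match, 34.6% were higher and 31.8% lower in NT2/D1 cells, and 42.0% were higher and 27.5% lower in TCam-2 cells. Genes with no 8mer and no 7mer match were higher in 33.8% and lower in 28.2% of cases in NT2/D1 cells. In TCam-2 cells 29.8% of them were higher and 39.6% lower, so genes with a full match fell less often there.

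In the wider thioredoxin, glutaredoxin and peroxiredoxin families, 5 of 19 genes rose and 4 fell in NT2/D1 cells (median -0.05), whereas 3 rose and 14 fell in TCam-2 cells (median -0.43). For all genes tested, 30.2% rose and 29.1% fell in NT2/D1 cells, and 33.7% rose and 32.7% fell in TCam-2 cells. The mitochondrial reductase TXNRD2 rose in NT2/D1 cells with the glutaredoxin GLRX, at 0.98 and 0.52. TXNIP, the inhibitor of thioredoxin, had log2 fold changes of -0.93 for NT2/D1 and 2.22 for TCam-2, and the difference of -3.14 was called. In TCam-2 cells TXNDC5, a disulfide isomerase, was also higher (0.53), and SRXN1, which repairs oxidised peroxiredoxins, and TXNDC17 were lower (-0.93 and -0.85). PRDX3, the mitochondrial peroxiredoxin, was lower in NT2/D1 cells (-0.23).

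The scrambled controls were compared to show the levels each line started with. Of 38 members tested, 19 were higher in NT2/D1 cells, 12 were lower and 7 were not called, where 39.8% and 39.4% of 17740 genes were called higher and lower (79.2% either way). The groups did not overlap for 31 of the 38, against 73.4% of all genes. The scrambled libraries enter this comparison as well as those above. Per kb of transcript, the 5 highest members in scrambled NT2/D1 cells were GSTP1 (1429 CPM per kb), MGST1 (628), TXN (365), GPX4 (312) and GPX1 (295). In scrambled TCam-2 cells they were GSTP1 (4528 CPM per kb), GSTO1 (289), GPX4 (268), TXN (203) and NQO1 (98.2). Apart from ABCB1, GPX1 and MGST1 had the largest log2 fold changes. GPX1 averaged 265 ± 52.9 CPM in NT2/D1 cells and 2.30 ± 0.822 CPM in TCam-2 cells (SD, n = 4 each; log2 fold change 6.86, SE 0.20, edgeR adjusted p = 6.43e-14). MGST1 averaged 581 ± 27.7 CPM in NT2/D1 cells and 11.7 ± 2.10 CPM in TCam-2 cells (SD, n = 4 each; log2 fold change 5.64, SE 0.11, edgeR adjusted p = 1.23e-17). In the other direction, ABCC2 averaged 2.29 ± 0.503 CPM in NT2/D1 cells and 54.1 ± 3.36 CPM in TCam-2 cells (SD, n = 4 each; log2 fold change -4.55, SE 0.13, edgeR adjusted p = 1.41e-15). GPX3, GSTO1, GGT7, NQO1, GSTP1, GSTZ1 and ABCG2 were also at lower levels in NT2/D1 cells, with log2 fold changes of -2.36, -1.72, -1.71, -1.69, -1.66, -1.53 and -1.35. Among the higher ones, GSR, KEAP1 and SLC31A1 had 2.14, 1.35 and 1.08. ABCB1 had 118 counts over the scrambled NT2/D1 libraries and 0 over the scrambled TCam-2 libraries, at least 39.7-fold higher in NT2/D1 cells against a floor of 3 counts over the group. NFE2L2 itself had 0.03 and was not called (95% interval -0.11 to 0.17), as were GCLM (-0.03) and GPX4 (0.22, but called without scrambled NT2/D1 replicate 2 or 3 or scrambled TCam-2 replicate 2, at 0.26 to 0.35). The GPX4 call also depended on the processing, since it was made with RLE factors, upper-quartile factors, a mean count of 100 or no filter, at 0.23 to 0.28 (edgeR adjusted p = 0.0015 to 0.0484).

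**Figure D5:**
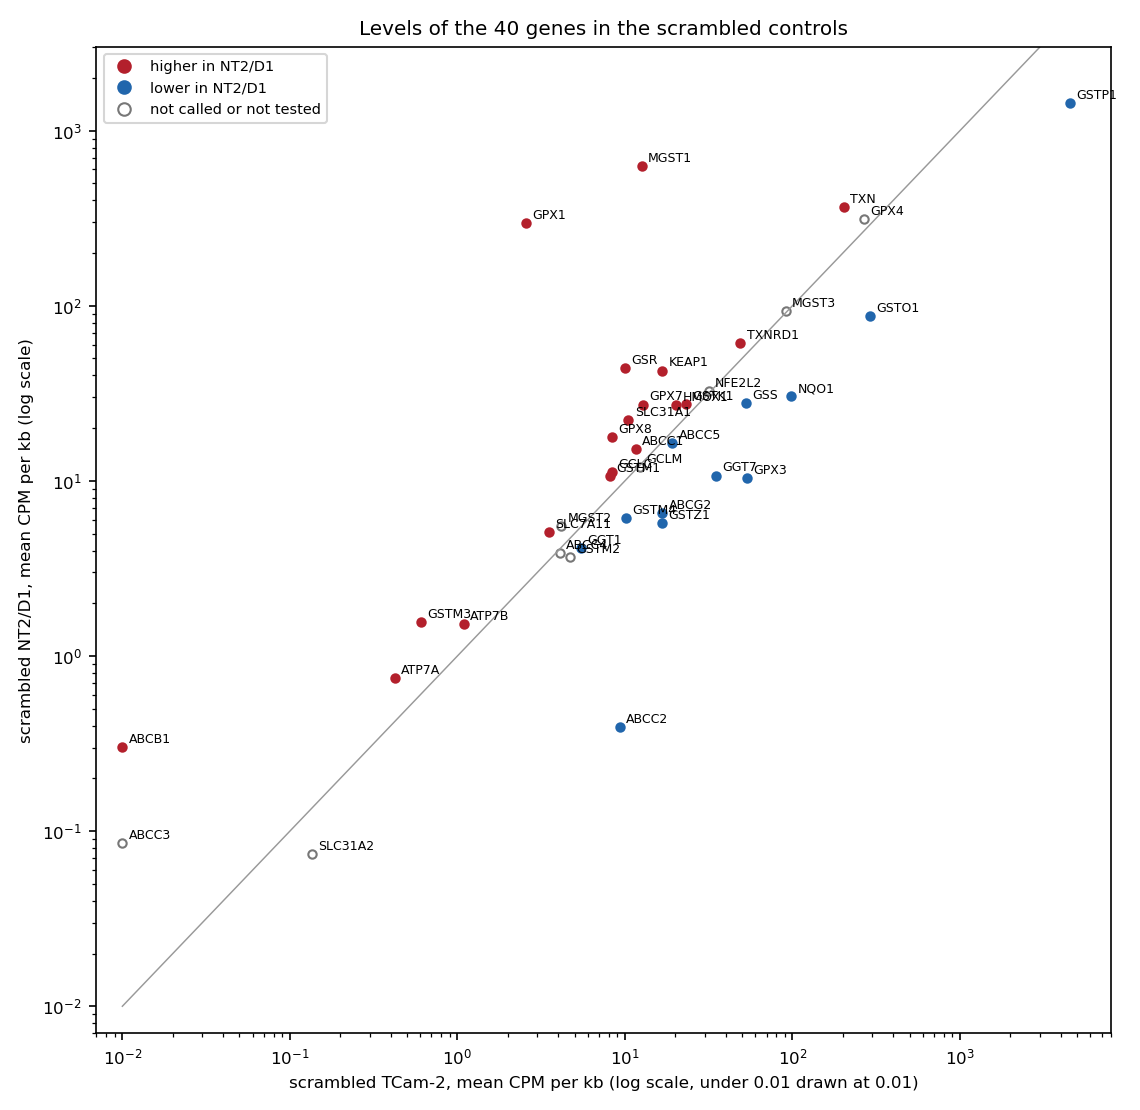
Mean level per kb of transcript (CPM per kb, log scales) of the 40 genes in scrambled NT2/D1 cells (y axis) and scrambled TCam-2 cells (x axis), coloured by the edgeR call, with a line of equal level and values under 0.01 drawn at 0.01. MGST1 and GPX1 lie far above the line (628 and 295 CPM per kb in NT2/D1, 12.6 and 2.56 in TCam-2 cells) and ABCC2 far below it.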

How the data were processed

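RNA from 16 libraries (paired-end Illumina) was measured in 4 groups of 4 biological replicates. The authors deposited 1 table of raw counts per gene, made with STAR on GRCh38 and featureCounts. No source used here gives the annotation release or the strand setting, and trimming is named differently in the methods and the submitters' processing notes. Libraries held 14167738 to 22427162 counts, and no column was left unmapped.

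Symbols, coordinates and 3' UTRs came from GENCODE release 44 (58207 of 58735 IDs matched) and miRNA and promoter sequences from RefSeq GRCh38.p14. Counts were tested with edgeR 4.0.16 in R 4.3.3 (robust quasi-likelihood fit, TMM factors, filterByExpr with a minimum count of 10 and a minimum total of 15, Benjamini-Hochberg adjustment over all genes, calls at an adjusted p under 0.05). Each comparison within a line, and that of the scrambled controls, used its own 8 libraries, and the interaction used all 16. SE is an approximate standard error, the absolute log2 fold change divided by the square root of the quasi-likelihood F. The 95% intervals used this SE with a normal quantile, so they are somewhat narrower than the edgeR test implies. CPM values used TMM library sizes over all 16 libraries, and CPM per kb the MANE Select transcript length. The scripts were tested on simulated data. Tables and plots were made with Python 3.11.15, pandas 2.3.3 and numpy 2.4.6.

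Alternatives were RLE and upper-quartile factors, DESeq2 1.42.0, omitting the filter, requiring a mean count of 100, a minimum fold of 1.5, all 16 libraries in 1 fit, the replicate number as a block, and leaving out each library. Values per library are given for 14 anchor members, for members called with a log2 fold change of at least 1 in either line, and for those called in opposite directions in the lines. Of each other list, the 2 called genes with the largest changes in each direction and line, at a mean count of at least 50, could be named. The members and lists were chosen with earlier results of these data known. Nothing beyond the label of biological replicates says how the replicates were grown. The p-values thus set differences between groups against the spread between these samples only. No pair of replicates was near identical (lowest chi-square per degree of freedom 1.98 over 24 pairs).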

Additional observations from a re-analysis of the deposited data

Results flagged for a closer look

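In 11 of the 140 sets of a member and a group that held at least 200 counts, 1 library lay far from the other 3 by Dixon's test, a distance that chance alone gives in about 1 of 20 groups. Replicate 2 of MIR9-2-5p NT2/D1 cells gave 4 of the 11: it had 39.0 CPM of ATP7B (the others 35.7 to 36.0), 386 CPM of MGST1 (the others 423 to 426), 18.0 CPM of GGT7 (the others 14.0 to 14.5) and 111 CPM of KEAP1 (the others 89.3 to 91.9). No other library gave more than 2. Replicate 2 of scrambled NT2/D1 cells had 8.68 CPM of ATP7A (the others 5.44 to 5.61). Replicate 1 of scrambled TCam-2 cells had 4.30 CPM of ATP7A (the others 3.34 to 3.38) and 67.1 CPM of GCLM (the others 57.2 to 58.0). Replicate 3 of MIR9-2-5p TCam-2 cells had 54.4 CPM of ABCC2 (the others 45.5 to 46.7). Replicate 4 of scrambled NT2/D1 cells had 85.2 CPM of ABCC5 (the others 98.2 to 99.1). Replicate 3 of scrambled TCam-2 cells had 17.8 CPM of GSTZ1 (the others 20.1 to 20.4). Replicate 1 of MIR9-2-5p TCam-2 cells had 63.3 CPM of MGST3 (the others 72.3 to 74.0).

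Over all 19576 genes tested, the difference between the lines was called for 53.2%, positive for 27.9% and negative for 25.3%. The response to MIR9-2-5p differed between the lines for 31 of 39 members tested by the interaction test of edgeR (adjusted p under 0.05, n = 4 in each group). As log2 fold change in NT2/D1 minus that in TCam-2 cells, it was positive for 25 members: GSTM1 5.45, NQO1 2.75, GPX1 2.49, GSTO1 2.10, ATP7B 1.81, MGST3 1.67, MGST2 1.38, TXNRD1 1.37, HMOX1 1.33, GGT1 1.28, GSTM2 1.22, ABCC2 1.20, GSS 1.10, GPX4 0.97, NFE2L2 0.91, GSR 0.91, GSTM4 0.85, GPX3 0.83, MGST1 0.67, KEAP1 0.62, GPX7 0.54, TXN 0.51, GCLM 0.46, ABCC4 0.39 and GSTP1 0.30. It was negative for 5 members, at SLC31A1 -2.24, SLC7A11 -2.08, ABCG2 -1.06, GCLC -0.81 and GPX8 -0.62, and for ABCB1, at -3.56. The ABCB1 value is no bound, since the scrambled TCam-2 libraries held 0 counts and the MIR9-2-5p TCam-2 libraries 4 counts in all, and the fitted value then depends on the prior count. Its call was lost without any 1 scrambled TCam-2 library or without MIR9-2-5p TCam-2 replicate 2 or 4, at -3.61 to -3.05 (edgeR adjusted p = 0.0568 to 0.102).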

How the results depend on the processing

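No member's called change turned direction under any alternative, and the counts of members called stayed within 1.5 times of those reported under all alternatives but one. With a minimum fold of 1.5, 8 members were higher and 3 lower in NT2/D1 cells, 3 were higher and 11 lower in TCam-2 cells, and 10 were higher in scrambled NT2/D1 than in scrambled TCam-2 cells, since small changes no longer count. Of the 12 members called in opposite directions in the lines, 10 then lost at least 1 of their calls. Over all genes this setting called 2192 higher and 1715 lower in NT2/D1 cells (5312 and 5119 without it) and 2182 higher and 1996 lower in TCam-2 cells (5673 and 5504 without it).

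With upper-quartile factors the median difference between the lines over all genes moved to -0.12. Relative to 0, ABCC5 in NT2/D1 cells was then not called (0.11, edgeR adjusted p = 0.181) and KEAP1 there was called (-0.27, edgeR adjusted p = 0.0206). The difference between the lines was then not called for GSTP1 (0.17, edgeR adjusted p = 0.196) or ABCC4 (0.26, edgeR adjusted p = 0.057), while negative differences became called for ABCC1 (-0.26, edgeR adjusted p = 0.046), ABCC5 (-0.28, edgeR adjusted p = 0.0104) and GGT7 (-0.46, edgeR adjusted p = 0.00848), which raised the negative ones to 9 members, against 6. GPX4 became called between scrambled controls (0.28, edgeR adjusted p = 0.0133).

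Without the filter ABCC3 (1.03, edgeR adjusted p = 0.0486) and TXN (0.22, edgeR adjusted p = 0.0147) were called in NT2/D1 cells and GPX4 between scrambled controls (0.26, edgeR adjusted p = 0.0015), while GPX3 in TCam-2 cells (-0.19, edgeR adjusted p = 0.051) and the difference of ABCB1 (-3.57, edgeR adjusted p = 0.0865) were not, and the medians of all genes in TCam-2 cells and between scrambled controls moved to 0.15. With a mean count of 100, ABCC5 in NT2/D1 cells (0.16, edgeR adjusted p = 0.0621) and the difference of GSTP1 (0.20, edgeR adjusted p = 0.148) were not called, and the differences of ABCC5 (-0.25, edgeR adjusted p = 0.0118) and GGT7 (-0.44, edgeR adjusted p = 0.0167) and GPX4 between scrambled controls (0.28, edgeR adjusted p = 0.0233) were. RLE factors added the difference of GGT7 (-0.36, edgeR adjusted p = 0.045) and GPX4 between scrambled controls (0.23, edgeR adjusted p = 0.0484). DESeq2 added the difference of GGT7 (-0.36, DESeq2 adjusted p = 0.049) and lost those of GSTP1 (0.27, DESeq2 adjusted p = 0.0549) and ABCB1 (-2.75, DESeq2 adjusted p = 0.0629).

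The same-numbered replicates did not deviate together (r -0.39 to 0.14 in NT2/D1 and -0.17 to 0.04 in TCam-2 cells), and not every library correlated best with its own number. With the replicate block, the calls were lost for ABCC5 in NT2/D1 cells (0.19, edgeR adjusted p = 0.058), GPX3 in TCam-2 cells (-0.18, edgeR adjusted p = 0.0511) and the difference for ABCB1 (-3.56, edgeR adjusted p = 0.0567), and no other member's call changed.

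On leaving out 1 library, results beyond those given with the genes changed in the comparison of scrambled controls: ABCC5 was lost without NT2/D1 replicate 4 (-0.14, edgeR adjusted p = 0.0763), GSTK1 without TCam-2 replicate 1 (0.18, edgeR adjusted p = 0.0659), MGST2 was gained without NT2/D1 replicate 2 (0.61, edgeR adjusted p = 0.00673) and GSTM2 without NT2/D1 replicate 3 (-0.41, edgeR adjusted p = 0.0478) or TCam-2 replicate 1 (-0.41, edgeR adjusted p = 0.0377). Depth limited SLC31A2, ABCC3 and ABCB1, which had few counts or none. Why calls changed was not tested.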
